A study of Homo sapiens and Mus musculus with 76 samples.

Results

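Pools of 100 and pools of 50 cells of HEK293T, a line derived from human embryonic kidney, were taken through the same protocol, and their polyadenylated RNA was sequenced. The comparison uses 6 of the 76 libraries of the series, those whose titles name pools of 100 or 50 cells and carry the numbers 1, 2 and 3 in each group. There were 3 libraries of 100 cells and 3 of 50 cells, for which the labels name no sort and no treatment, and 3 libraries of 10 cells are set beside them where useful. The comparison asks how far the measured transcriptome depends on the number of cells lysed. Smart-Seq2, the protocol named for all 9 libraries, copies RNA with a poly(A) tail into full-length cDNA, adds a second primer site by template switching at the 5' end of the RNA, and amplifies the copy by PCR before sequencing. The pools differ by label only in how many cells enter this reaction. The labels name no separate cultures behind the libraries, so a p-value here measures how far these libraries vary, and that variation may be technical.

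Some gene families bear on how such libraries are read. Ribosomal proteins form the large and small subunits of the cytosolic ribosome, and their messages are short and abundant. The subunits of the respiratory chain that are encoded in the nucleus are made in the cytosol and assembled in the mitochondrial inner membrane, where complexes I to IV pass electrons and ATP synthase makes ATP. Subunits of the proteasome, which degrades proteins, and of the spliceosome are likewise mostly encoded by short messages, whereas many chromatin regulators and cytoskeletal linkers have messages of many kilobases.

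The libraries of 100 cells had 4909745, 3637679 and 5553383 reads assigned to genes, and those of 50 cells had 3507344, 3475511 and 4349439. The libraries numbered 3 of both groups stood apart from those numbered 1 and 2. Within 100 cells the mean chi-square per gene, a measure that is near 1 where 2 libraries differ by counting error alone, was 1.75 between numbers 1 and 2 and 19.0 and 18.7 between number 3 and these. Within 50 cells it was 4.39 between numbers 1 and 2, and 10.5 and 21.5 between number 3 and these, whereas the libraries numbered 3 of 100 and 50 cells had 5.48 between them. For numbers 1 and 2 of 100 cells the measure was thus close to counting error, and these libraries may not be independent. The first principal component held 53.6% of the variance and separated the libraries numbered 3 from the others. The second held 23.2% and separated 100 cells (-17.4, -14.5 and -13.1) from 50 cells (15.5, 24.9 and 4.59), with the smallest gap in number 3. The labels do not say what the number stands for. It enters the main fit as a block, so that 100 cells are set against 50 cells of the same number.

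**Figure D1:**
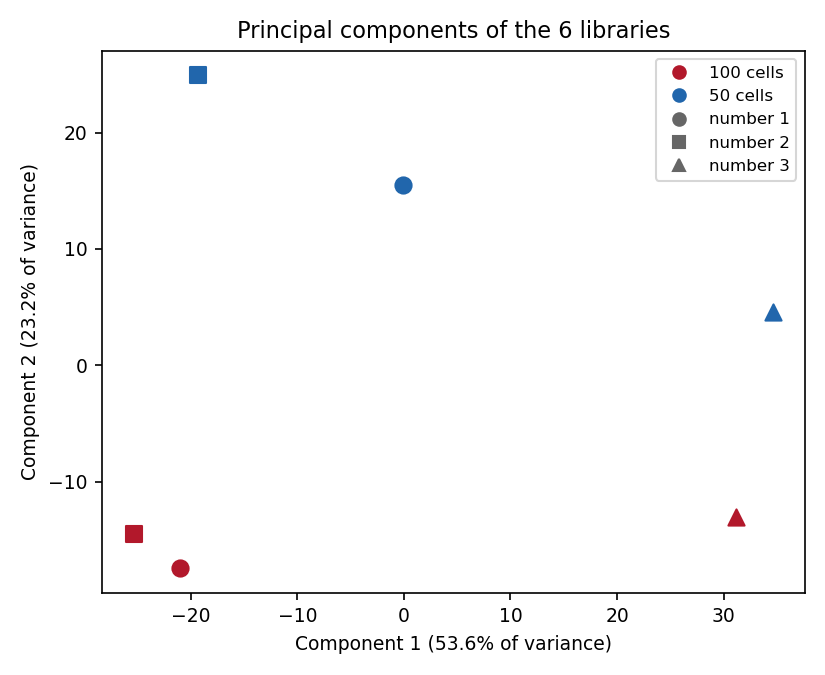
Scores of the 3 libraries of 100 cells (red) and 3 of 50 cells (blue) on the first 2 principal components of log2 levels, with the share of variance on each axis and the marker showing the library number. Number 3 of both groups lies to the right on the first component, and 100 cells lie below 50 cells on the second, at -17.4 to -13.1 against 4.59 to 24.9.

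Messages of ribosomal proteins, of the respiratory chain and ATP synthase and of the proteasome had a larger summed level in 100 cells than in 50 cells. These sums are scaled by TMM, as described below, and are not plain shares of the reads. Fewer members were called among 36 long chromatin regulators (7 lower and 0 higher) and 27 long cytoskeletal and motor genes (5 lower and 0 higher). Of 11354 genes tested, 951 (8.38%) were higher in 100 cells and 631 (5.56%) were lower, at an adjusted p under 0.05 in edgeR's quasi-likelihood test with the number as a block. The differences were small, with a median log2 fold change of 0.45 among the genes that were higher and -0.52 among those that were lower. A log2 fold change beyond 1 was reached by 20 called genes (0.176%) that were higher and 49 (0.432%) that were lower. Of the 1582 genes called, 1528 moved in the same direction within all 3 numbers, and in 875 the ranges of 100 and 50 cells were apart. A fit with the number as a block favours such agreement, so it is no separate support for the calls. Within all 3 numbers, 2644 (23.3%) of the genes tested were higher and 2587 (22.8%) lower. Over all genes tested, 830 (7.31%) were higher in 100 cells with ranges that did not overlap and 902 (7.94%) were lower.

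These calls rest on the block. Without it the same test called 0 genes in either direction (lowest adjusted p 0.412), with 541 higher and 464 lower at an unadjusted p under 0.05. Without the block DESeq2 called 62 higher and 1 lower, and limma called 0. With the block kept and 1 number left out, 246 genes were higher and 278 lower without number 1, 150 and 173 without number 2, and 1071 and 816 without number 3. The scale matters too. Levels below are counts per 1000000 gene reads scaled by TMM, which sets the bulk of genes level, in short CPM. The TMM factors, which divide the counts, were 0.903 to 0.978 in 100 cells and 1.044 to 1.095 in 50 cells. Sums and ranges that are apart on this scale may overlap on library totals. When only library totals were used for scaling, the median of all 11354 genes shifted by -0.21 on the log2 scale, and the calls became 355 higher and 2079 lower.

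**Figure D2:**
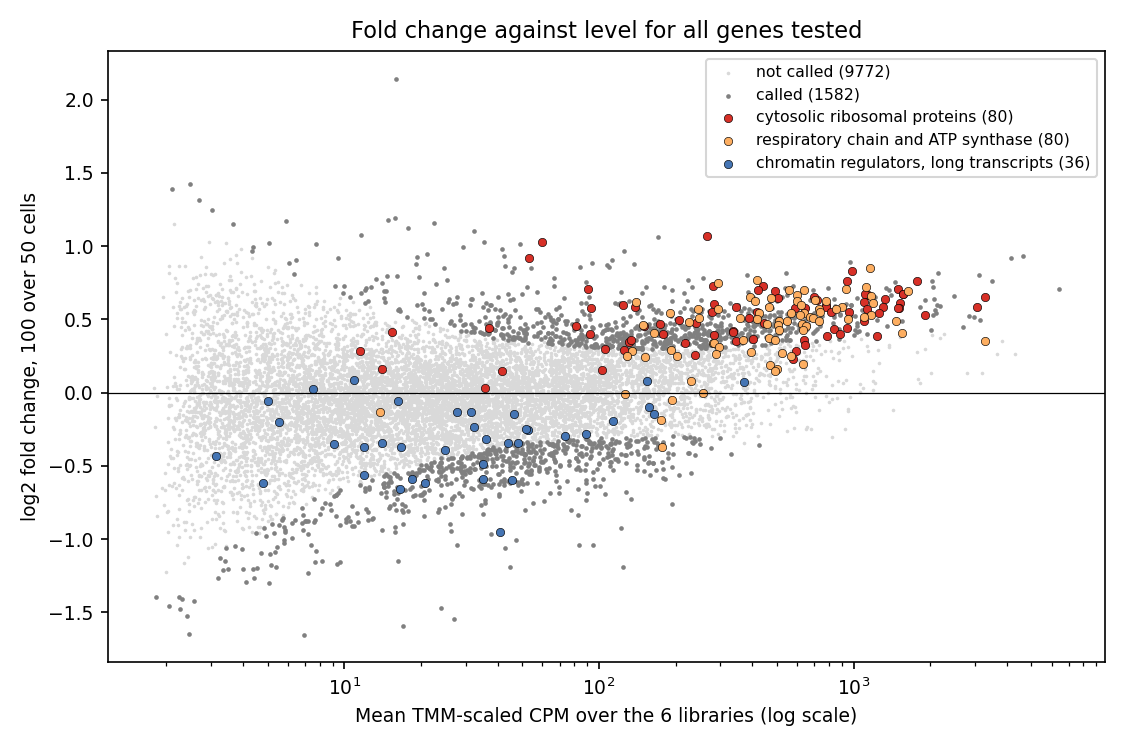
Log2 fold change of 100 over 50 cells against the mean TMM-scaled CPM over the 6 libraries (log scale) for the 11354 genes tested, with 1582 called genes in dark grey. The 80 ribosomal protein genes (red) all lie above 0, 74 of 80 respiratory chain and ATP synthase genes (orange) lie above 0, and 32 of 36 long chromatin regulators (blue) lie below 0.

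Messages of cytosolic ribosomal proteins begin with a run of pyrimidines, the terminal oligopyrimidine tract, which ties their translation to growth signals, and the starts of a few members are shown to let this feature be seen beside the values. The sequences are RefSeq promoters on GRCh38.p14, 50 bases before and 25 from the annotated start, 5' to 3' on the gene's strand, with capitals marking the unbroken run of C or T through the first transcribed base.
RPS3A, chr4:151099578-151099652, plus strand: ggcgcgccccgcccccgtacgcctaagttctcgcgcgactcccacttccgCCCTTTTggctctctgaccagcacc
RPL24, chr3:101686694-101686768, minus strand: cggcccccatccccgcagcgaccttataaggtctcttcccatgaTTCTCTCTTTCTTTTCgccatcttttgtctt
RPL35, chr9:124861933-124862007, minus strand: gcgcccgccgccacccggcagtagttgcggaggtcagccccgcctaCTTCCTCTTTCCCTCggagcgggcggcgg
COX7C, chr5:86617891-86617965, plus strand: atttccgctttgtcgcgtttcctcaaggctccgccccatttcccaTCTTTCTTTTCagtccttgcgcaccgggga
SRRM2, chr16:2752588-2752662, plus strand: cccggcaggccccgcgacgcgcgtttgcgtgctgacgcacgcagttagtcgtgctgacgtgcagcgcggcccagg
GANAB, chr11:62646589-62646663, minus strand: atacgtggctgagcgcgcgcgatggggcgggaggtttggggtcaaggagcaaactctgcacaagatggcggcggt
The runs were 7, 16, 15 and 11 bases in RPS3A, RPL24, RPL35 and COX7C, which were higher in 100 cells, and 0 in SRRM2 and GANAB, which were lower. These genes were picked as examples without a rule, and most genes called higher lack such a run. A run of at least 5 such bases at the start, searched on the gene's strand, was found in 51 of 81 promoter entries (63.0%) of the 65 ribosomal protein genes matched by symbol, against 1079 of 12565 entries (8.59%) of all 8453 tested genes matched. Among genes called higher it was in 13.6% of entries and among genes called lower in 7.86%. For mitochondrial ribosomal proteins it was in 8.33% and for complex I subunits in 5.13%, although both groups had members that were higher in 100 cells. For complex IV subunits, which include COX7C, it was in 3 of 12 entries (25%). A match describes the annotated start only.

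Of 80 cytosolic ribosomal protein genes tested, of 84 listed, 67 were higher in 100 cells and 0 were lower. The background over all genes was 8.38% higher and 5.56% lower. Their summed level was 63650.0, 60020.0 and 64590.0 CPM in the 3 libraries of 100 cells, against 40050.0, 34330.0 and 54300.0 CPM in those of 50 cells. On this scale all 3 libraries of 100 cells lay above all 3 of 50 cells, and number 3 of 50 cells was the nearest. With the TMM factors undone, that is on library totals, number 3 of 50 cells lay above number 2 of 100 cells. The list's median log2 fold change was 0.55, against -0.01 for all genes tested, and 51 members had ranges that did not overlap, all higher. Within numbers 1, 2 and 3 the median was 0.64, 0.75 and 0.19. When number 1 was left out 23 of 81 tested members were called, and 11 of 81 when number 2 was. Without the block none was called in edgeR, and 49 were higher and 0 lower at an unadjusted p under 0.05. With library totals 49 of 80 were higher at a median of 0.35.

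The large and small subunits moved alike, with 40 of 48 genes of the large subunit and 27 of 32 of the small one higher and a median of 0.55 each. RPS2, a protein of the small subunit, was at 368, 333 and 374 CPM in 100 cells, against 166, 133 and 222 CPM in 50 cells (1.07 ± 0.11, adjusted p = 2.88e-10), where the bracket gives the fitted log2 fold change with its SE and the edgeR p, as it does for the genes that follow. RPS3A, also of the small subunit, was at 86.4, 94.1 and 61.1 CPM in 100 cells, against 42.4, 38.0 and 35.9 CPM in 50 cells (1.03 ± 0.12, adjusted p = 5.91e-09). In both genes the groups stood clear of each other, but each has processed pseudogenes, which leaves uncertain where their reads belong. Reads from such copies were not examined for any member of the list. RPL35, of the large subunit, was at 1261, 1154 and 1335 CPM in 100 cells, against 682, 565 and 899.6 CPM in 50 cells (0.83 ± 0.13, adjusted p = 6.74e-06). RPL24 was at 362, 342 and 341 CPM in 100 cells, against 196, 169 and 275 CPM in 50 cells (0.73 ± 0.12, adjusted p = 4.91e-06). Both held their level across the 3 libraries of 100 cells while number 3 was the highest of 50 cells. The 13 members that were not called had log2 fold changes from 0.03 for RPS26 upwards, and none was below 0.

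The series of pool sizes can be followed for the same list. The summed level of ribosomal proteins was 27280.0, 26060.0 and 32300.0 CPM in the libraries of 10 cells. On the TMM scale the 3 pool sizes did not overlap in this sum, which was lowest in 10 cells and highest in 100. The factors that divide the counts were 0.903 to 0.978 in 100 cells, 1.044 to 1.095 in 50 and 1.147 to 1.221 in 10. They thus lower the sums of the smaller pools. With the factors undone, that is on library totals, neighbouring pool sizes overlapped. Number 3 of 50 cells then lay above number 2 of 100 cells, and number 3 of 10 cells above number 2 of 50 cells. RPS2 was at 45.1, 48.8 and 52.0 CPM in 10 cells, and RPL35 at 433, 446 and 568 CPM, of which the last exceeds the lowest library of 50 cells.

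**Figure D3:**
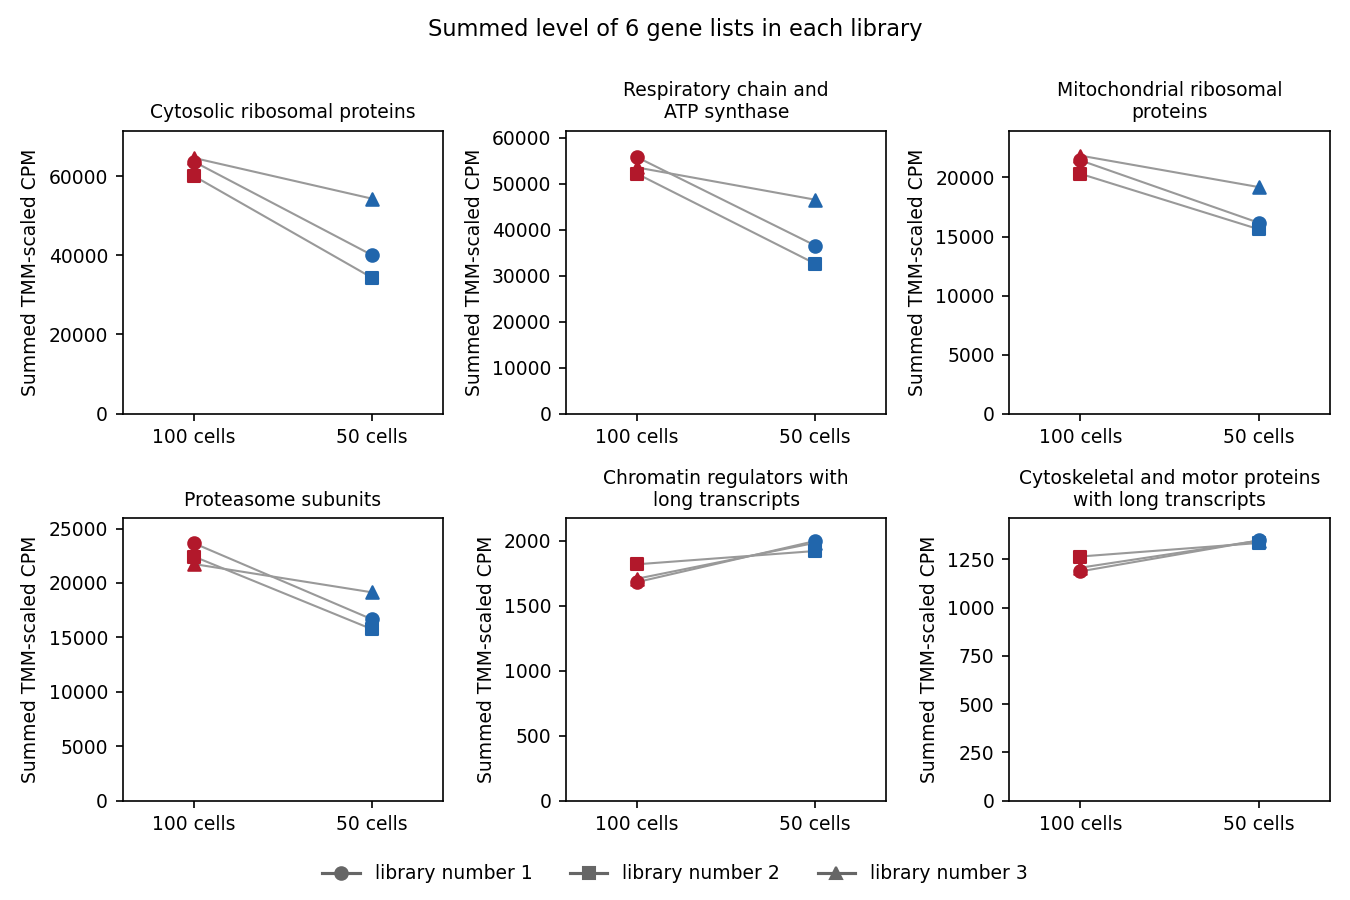
Summed TMM-scaled CPM of 6 gene lists in each library, 100 cells on the left and 50 cells on the right of each panel, with lines joining libraries of the same number. Ribosomal proteins, the respiratory chain and ATP synthase, mitochondrial ribosomal proteins and the proteasome lie higher in 100 cells in all 3 numbers (ribosomal proteins 60020.0 to 64590.0 against 34330.0 to 54300.0 CPM), and both lists of long transcripts lie lower.

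The respiratory chain and ATP synthase gave the next largest shift. Of 80 nuclear-encoded subunit genes, 59 were higher in 100 cells and 1 was lower, and the median log2 fold change was 0.49. These counts are 73.8 and 1.25%, against 8.38 and 5.56% of all genes. The summed level was 55750.0, 52150.0 and 53530.0 CPM in 100 cells, against 36550.0, 32600.0 and 46520.0 CPM in 50 cells. On this scale 100 cells were the higher in every library. With the TMM factors undone, number 3 of 50 cells lay above number 2 of 100 cells. The median within numbers 1, 2 and 3 was 0.60, 0.68 and 0.195. When number 1 was left out 15 of 80 were called higher, and 4 of 80 when number 2 was. Without the block none was called in edgeR, and 51 were higher and 0 lower at an unadjusted p under 0.05. With library totals 47 were higher and 2 lower. The 15 mitochondrially encoded genes listed had no row under those symbols in the files used here, so only the nuclear subunits were followed.

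By complex, 27 of 37 subunits of complex I were higher, as were 6 of 9 of complex III, 11 of 12 of complex IV and 15 of 18 of ATP synthase, and none of these was lower. Without number 1 these counts were 7, 2, 1 and 5, and without number 2 they were 2, 1, 0 and 1. COX7C, a small subunit of complex IV, was at 1597, 1481 and 1388 CPM in 100 cells, against 806, 644 and 1071 CPM in 50 cells (0.85 ± 0.14, adjusted p = 1.31e-05). It missed the threshold without number 2 (adjusted p = 0.0757). ATP5J2, a subunit of the membrane part of ATP synthase, was at 555, 531 and 484 CPM in 100 cells, against 282, 272 and 373 CPM in 50 cells (0.77 ± 0.12, adjusted p = 3.68e-06). UQCRB of complex III was at 547, 495 and 403 CPM in 100 cells, against 324, 287 and 303 CPM in 50 cells (0.65 ± 0.12, adjusted p = 4.99e-05). In these 3 genes every library of 100 cells lay above every library of 50 cells. NDUFC2, an accessory subunit of complex I, was at 455, 459 and 212 CPM in 100 cells, against 227, 237 and 174 CPM in 50 cells (0.75 ± 0.12, adjusted p = 3.92e-06), and here number 3 of 100 cells fell within the range of 50 cells. The core subunits NDUFS1 (-0.19) and NDUFV1 (-0.05), which carry iron-sulfur clusters and the flavin, did not pass the test. They were chosen after their values were seen.

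Complex II, whose 4 subunits oxidise succinate, did not follow the others. SDHA, its flavoprotein, was at 128, 142 and 195 CPM in 100 cells, against 191, 182 and 224 CPM in 50 cells (-0.37 ± 0.11, adjusted p = 0.0112). It was lower within each number, although the ranges overlapped, and the call was lost without number 1 (adjusted p = 0.242) and without number 2 (adjusted p = 0.163). SDHB, the iron-sulfur subunit, was at 585, 538 and 591 CPM in 100 cells, against 456, 405 and 576 CPM in 50 cells and did not pass (0.27 ± 0.12, adjusted p = 0.134). The membrane anchors SDHC (-0.13 ± 0.20, adjusted p = 0.740) and SDHD (0.25 ± 0.11, adjusted p = 0.139) did not pass either. SDHB was called higher without number 3 (adjusted p = 0.00335). Whether complex II differs from the other complexes was not tested.

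Other mitochondrial lists moved less. Of 76 mitochondrial ribosomal protein genes, 31 (40.8%) were higher in 100 cells and 0 lower, with a median of 0.28. Over all genes 8.38% were higher and 5.56% lower. The sum of the mitochondrial ribosomal proteins was 21450.0, 20310.0 and 21850.0 CPM in 100 cells, against 16170.0, 15620.0 and 19190.0 CPM in 50 cells. The sums did not overlap on this scale. With the TMM factors undone, number 3 of 50 cells lay above numbers 1 and 2 of 100 cells. The count of genes fell to 5 without number 1 and 3 without number 2, and library totals gave 13 higher and 5 lower. MRPL23 was at 164, 153 and 180.0 CPM in 100 cells, against 84.1, 65.0 and 108 CPM in 50 cells (0.96 ± 0.11, adjusted p = 1.53e-09). Of 24 genes of the import machinery of the outer and inner membrane, 10 (41.7%) were higher and 0 lower. TOMM6, one of these 10, was at 1092, 1059 and 1163 CPM in 100 cells, against 668, 589 and 984 CPM in 50 cells (0.60 ± 0.13, adjusted p = 0.00109). Without number 1 none of the 24 was called, and 1 was called without number 2; TOMM6 missed the threshold in both (adjusted p 0.123 and 0.230).

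Called subunits of the proteasome and of folding complexes were higher in 100 cells, apart from 1. Of 34 proteasome genes, 17 were higher in 100 cells and 1 was lower (median 0.34). That is 50 and 2.94%, against 8.38 and 5.56% of all genes. The sum was 23650.0, 22430.0 and 21740.0 CPM in 100 cells, against 16660.0, 15750.0 and 19140.0 CPM in 50 cells. PSMA4, of the outer ring of the catalytic core, was at 2993, 2861 and 1898 CPM in 100 cells, against 1584, 1556 and 1351 CPM in 50 cells (0.76 ± 0.15, adjusted p = 0.000197). PSMD3, of the regulatory lid, was the lower one, at 39.7, 44.8 and 73.8 CPM in 100 cells, against 70.3, 65.8 and 87.0 CPM in 50 cells (-0.52 ± 0.12, adjusted p = 0.00173). Leaving out number 1 left 2 proteasome genes higher and leaving out number 2 left 1, and PSMA4 then missed the threshold (adjusted p 0.119 and 0.110). Of 13 genes of the chaperonin CCT and of prefoldin, which fold actin and tubulin, 5 (38.5%) were higher (0 without number 1, 1 without number 2, 11 without number 3). The prefoldin subunit VBP1 was at 917, 887 and 382 CPM in 100 cells, against 452, 650.0 and 280.1 CPM in 50 cells (0.64 ± 0.13, adjusted p = 0.000213), with number 3 low in both groups. Without number 1 the calls on PSMD3 (adjusted p = 0.0891) and VBP1 (adjusted p = 0.126) were lost.

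The translation machinery outside the ribosome was mixed. Of 36 initiation and elongation factors, 10 were higher and 3 lower, with a median of 0.11 that turned to -0.09 with library totals, under which 1 was higher and 6 lower. The 10 and 3 are 27.8 and 8.33% of the list, against 8.38 and 5.56% of all genes. EEF1B2, which recharges the elongation factor that delivers tRNA, was at 342, 339 and 363 CPM in 100 cells, against 245, 200.3 and 329 CPM in 50 cells (0.45 ± 0.11, adjusted p = 0.00355). EIF4G1, the scaffold of the cap-binding complex, was at 52.3, 53.8 and 69.2 CPM in 100 cells, against 84.3, 67.9 and 95.6 CPM in 50 cells (-0.50 ± 0.12, adjusted p = 0.00162). When number 1 was left out the factors gave 0 higher and 1 lower, when number 2 was left out 1 and 1, and when number 3 was left out 13 and 5. EEF1B2 lost its call without number 1 (adjusted p = 0.0651) and without number 2 (adjusted p = 0.334), and EIF4G1 without number 1 (adjusted p = 0.0564). Of 19 aminoacyl-tRNA synthetases, which load tRNAs, 1 was higher and 4 were lower (5.26 and 21.1%, against 8.38 and 5.56% of all genes). YARS, one of those lower, was at 129, 132 and 184 CPM in 100 cells, against 178, 197 and 240.3 CPM in 50 cells (-0.47 ± 0.11, adjusted p = 0.00118). With number 1 left out the synthetases gave 0 higher and 1 lower, without number 2 none was called (YARS adjusted p = 0.118), and without number 3 the count was 2 and 4.

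RNA polymerase II showed both directions within 1 enzyme. Of its 12 subunits, 5 were higher and 2 lower (41.7 and 16.7%, against 8.38 and 5.56% of all genes). Its catalytic subunits were lower in 100 cells, POLR2A at 11.7, 13.2 and 29.8 CPM in 100 cells, against 38.5, 36.1 and 36.6 CPM in 50 cells (-1.04 ± 0.17, adjusted p = 9.23e-06). POLR2B was at 144, 158 and 146 CPM in 100 cells, against 192, 204 and 182 CPM in 50 cells (-0.36 ± 0.11, adjusted p = 0.0118). Neither range overlapped. The small subunits POLR2F (0.52), POLR2K (0.45), POLR2L (0.47), POLR2G (0.43) and POLR2J (0.40) were higher, with adjusted p-values from 0.00143 to 0.00916. POLR2L, for example, was at 562, 534 and 683 CPM in 100 cells, against 413, 337 and 553 CPM in 50 cells. The other 5 subunits did not pass the test, with log2 fold changes of -0.26 for POLR2D, -0.06 for POLR2E, 0.12 for POLR2C, 0.27 for POLR2I and 0.29 for POLR2H. Dropping number 1 left 1 subunit higher and 1 lower, and dropping number 2 left 0 and 1, while library totals left 2 higher and 3 lower. POLR2A kept its call with any number left out, POLR2B lost its call without number 1 (adjusted p = 0.117) and without number 2 (adjusted p = 0.182), and each small subunit lost its call without number 1, number 2 or both. Without number 3, POLR2D (adjusted p = 0.034) and POLR2H (adjusted p = 0.00557) were called and POLR2J was not (adjusted p = 0.146).

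Among splicing proteins the calls lay mainly with the small ring proteins. Of 18 Sm and LSm proteins, which form the rings around small nuclear RNAs, 12 were higher and 1 was lower (median 0.48). SNRPE was at 396, 425 and 175 CPM in 100 cells, against 221, 183 and 145 CPM in 50 cells (0.78 ± 0.12, adjusted p = 2.08e-06), higher within each number although the ranges overlapped. Dropping number 1 left 6 higher, and dropping number 2 left 2. Of 14 SR splicing factors, 2 were higher and 1 lower (1 and 2 without number 1, 1 and 1 without number 2, 3 and 2 without number 3), 14.3 and 7.14% of the list against 8.38 and 5.56% of all genes. SRSF9, one of the smaller SR proteins, was at 151, 138 and 162 CPM in 100 cells, against 88.0, 76.8 and 118 CPM in 50 cells (0.69 ± 0.11, adjusted p = 4.41e-06). SRRM2, a very large scaffold of nuclear speckles whose annotated start lacks such a run, was at 55.2, 68.7 and 107 CPM in 100 cells, against 154, 166 and 196 CPM in 50 cells (-1.19 ± 0.11, adjusted p = 4.1e-12). It was at 394, 479.9 and 529.7 CPM in 10 cells, and the 3 pool sizes did not overlap.

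Long messages of chromatin and the cytoskeleton were lower or did not pass. Of 36 chromatin regulators with long transcripts, 7 were lower and 0 higher in 100 cells (median -0.31), and 32 had a log2 fold change below 0. Their sum was 1681, 1818 and 1707 CPM in 100 cells, against 1997, 1920.0 and 1983 CPM in 50 cells. The acetyl-lysine reader BRD2 was at 22.6, 24.2 and 36.8 CPM in 100 cells, against 48.7, 48.7 and 63.2 CPM in 50 cells (-0.95 ± 0.13, adjusted p = 2.96e-07). The remodeller CHD8 was at 31.6, 38.9 and 38.3 CPM in 100 cells, against 49.7, 45.5 and 68.9 CPM in 50 cells (-0.60 ± 0.13, adjusted p = 0.000745). EP300 (-0.59), CREBBP (-0.66), SETD2 (-0.49) and TRRAP (-0.59) were among the other members called. Without number 1 only 2 were called, and with library totals 21 were. The background of genes called lower was 5.56% over all genes.

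Of 27 cytoskeletal and motor proteins with long transcripts, 5 were lower and 0 higher (median -0.16), and without number 1 only 2 were and without number 2 only 3 (FLNA missed the threshold without number 1, adjusted p = 0.0575). FLNA, an actin crosslinker, was at 15.3, 16.4 and 23.0 CPM in 100 cells, against 30.2, 26.2 and 32.4 CPM in 50 cells (-0.70 ± 0.16, adjusted p = 0.00154). ACTN1, which bundles actin, was at 37.7, 36.5 and 44.5 CPM in 100 cells, against 58.8, 66.6 and 59.0 CPM in 50 cells (-0.63 ± 0.13, adjusted p = 0.000259). Both stood clear of 50 cells in all 3 libraries. In the nuclear envelope list, 1 of 19 genes was higher and 3 were lower, 5.26 and 15.8% against 8.38 and 5.56% of all genes. The small DNA-bridging protein BANF1 was at 352, 315 and 415 CPM in 100 cells, against 244, 207 and 309.8 CPM in 50 cells (0.52 ± 0.11, adjusted p = 0.000678). The nuclear pore protein NUP98 was at 58.4, 53.8 and 56.0 CPM in 100 cells, against 76.0, 77.3 and 80.6 CPM in 50 cells (-0.48 ± 0.12, adjusted p = 0.00261). Dropping number 1, the envelope list had 1 higher and 1 lower, and without number 2 none (BANF1 adjusted p = 0.101, NUP98 adjusted p = 0.0673).

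The genes with the largest differences lay outside most of these lists. Higher in 100 cells were SNAR-I (2.14) and SNAR-E (1.06), small RNAs bound by the protein NF90 that have many near-identical copies, so that their read assignment is uncertain. SNAR-I was at 36.1, 27.8 and 15.1 CPM in 100 cells, against 5.99, 2.67 and 7.93 CPM in 50 cells (SE 0.24, adjusted p = 1e-09). SNAR-E was at 323, 232 and 147 CPM in 100 cells, against 96.8, 98.2 and 126 CPM in 50 cells (SE 0.13, adjusted p = 1.44e-08). In both, number 3 of 100 cells was the lowest of its group and number 3 of 50 cells the highest. FAM58A, a cyclin, was at 22.8, 23.6 and 19.7 CPM in 100 cells, against 10.9, 5.62 and 11.9 CPM in 50 cells (1.19 ± 0.21, adjusted p = 2.85e-05). MT1F, a metallothionein that binds zinc, was at 46.0, 46.0 and 40.3 CPM in 100 cells, against 22.6, 14.4 and 24.0 CPM in 50 cells (1.10 ± 0.15, adjusted p = 1.43e-07). Metallothioneins are close copies of each other, which bears on their reads as well. The mesoderm factor MESP1 (1.18), the endophilin SH3GL3 (1.16), FKBP1B (1.12), which binds calcium release channels, and RPS2 complete the 8.

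Among called genes with ranges apart and at least 20 CPM in 50 cells, the lowest log2 fold change was that of CLPTM1, at 6.54, 6.87 and 11.8 CPM in 100 cells, against 26.8, 23.3 and 26.6 CPM in 50 cells (-1.59 ± 0.20, adjusted p = 1.44e-08). HSF1, the transcription factor of the heat shock response, was at 8.79, 9.86 and 22.8 CPM in 100 cells, against 37.2, 39.0 and 44.0 CPM in 50 cells (-1.55 ± 0.17, adjusted p = 6.34e-10). GANAB, a glucosidase that trims glycans in the endoplasmic reticulum, was at 9.02, 10.2 and 18.8 CPM in 100 cells, against 25.2, 34.2 and 45.8 CPM in 50 cells (-1.47 ± 0.17, adjusted p = 1.53e-09). In all 3 genes number 3 of 100 cells was the highest of its group and still lay below every library of 50 cells. Also in this set were the lipoprotein receptor SCARB1 (-1.15), ARHGDIA (-1.06), SRRM2 and POLR2A. The 15 genes of both directions named here stayed called under the alternatives that kept the block, DESeq2 aside. DESeq2 gave an adjusted p for 4 of the 15 and called RPS2, SRRM2 and ARHGDIA but not SNAR-E (adjusted p = 0.0545). HSF1 was at 128, 101 and 109 CPM in 10 cells and GANAB at 109, 116 and 128 CPM, above all libraries of 50 cells.

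**Figure D4:**
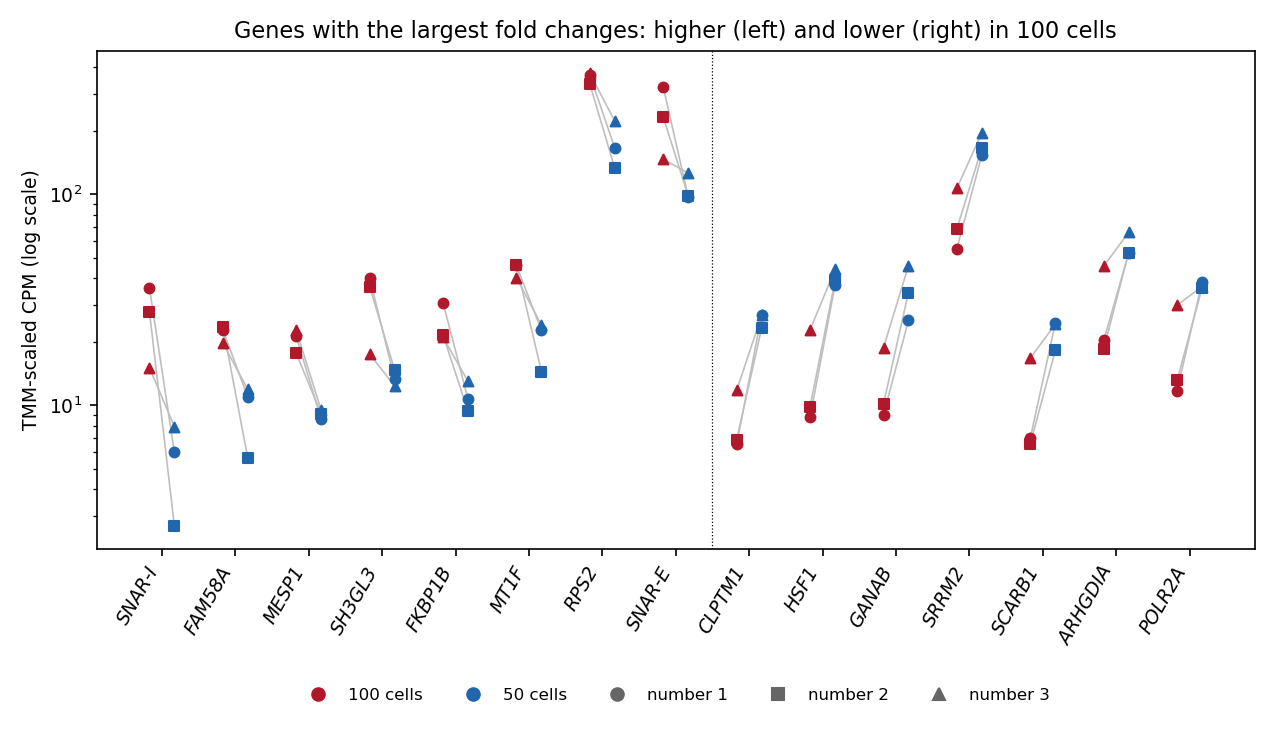
TMM-scaled CPM (log scale) of 8 genes higher (left) and 7 lower (right) among those with the largest log2 fold changes, with 100 cells in red on the left and 50 cells in blue on the right of each gene, markers for the library number and lines joining libraries of the same number. The groups do not overlap in any of the 15 genes, by the rule that chose them, and the gap is smallest in number 3 for genes such as POLR2A (29.8 against 36.6 CPM) and SNAR-E (147 against 126 CPM).

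Stress and signalling lists were short, and the share called varied between them. Over all genes 8.38% were higher and 5.56% lower. The heat shock list had 13.3 and 13.3%, the unfolded protein response 5.26 and 15.8%, and immediate early genes 0 and 7.69%. Of 15 heat shock chaperones and regulators, 2 were higher and 2 lower, and HSF1 was one of those lower. HSPE1, the mitochondrial co-chaperone, was at 612, 568 and 290.1 CPM in 100 cells, against 309, 296 and 208 CPM in 50 cells (0.80 ± 0.12, adjusted p = 8.43e-07). BAG3, a co-chaperone, was at 11.5, 16.7 and 15.1 CPM in 100 cells, against 20.8, 23.8 and 22.7 CPM in 50 cells (-0.64 ± 0.18, adjusted p = 0.00924). With either number 1 or number 2 left out, 1 gene of the list was higher and 1 lower, and without number 3 the count was 4 and 2. BAG3 missed the threshold without number 1 (adjusted p = 0.111) and without number 2 (adjusted p = 0.0679). Of 19 genes of the unfolded protein response, 1 was higher and 3 were lower. XBP1, its transcription factor, was at 245, 229 and 199 CPM in 100 cells, against 131, 125 and 151 CPM in 50 cells (0.72 ± 0.11, adjusted p = 2.05e-06), and at 37.7, 52.0 and 48.5 CPM in 10 cells. CALR, a calcium-binding chaperone, was at 125, 116 and 189 CPM in 100 cells, against 196, 189 and 253 CPM in 50 cells (-0.58 ± 0.11, adjusted p = 7.72e-05). Leaving out number 1 or number 2 gave 1 higher and 2 lower, and leaving out number 3 gave 2 and 4. None of 16 targets of ATF4, the factor of the integrated stress response, was called in edgeR with the block, with 0 higher and 2 lower at an unadjusted p under 0.05. Their median log2 fold change was -0.12, and 14 of the 16 lay below 0. DESeq2 called none of the 8 to which it gave an adjusted p, limma called 1 lower, and edgeR called 1 lower without number 3. Of 13 immediate early genes, which answer to growth signals, MYC was lower, at 67.4, 77.1 and 106 CPM in 100 cells, against 106, 122 and 119.8 CPM in 50 cells (-0.49 ± 0.11, adjusted p = 0.00143). The call on MYC was lost without number 2 (adjusted p = 0.112), and without number 3 the list had 2 lower.

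Metabolic lists also held both directions, with 22.2% higher and 16.7% lower in glycolysis and 15.4% each way in cholesterol synthesis. Over all genes the shares were 8.38 and 5.56%. Of 18 glycolysis genes, 4 were higher and 3 lower, and their median of 0.10 turned to -0.09 with library totals. LDHB, which interconverts pyruvate and lactate, was at 8569, 7949 and 7407 CPM in 100 cells, against 4644, 4337 and 5754 CPM in 50 cells (0.71 ± 0.18, adjusted p = 0.00453). HK1, which starts glycolysis, was at 33.1, 31.7 and 40.1 CPM in 100 cells, against 40.6, 42.3 and 54.2 CPM in 50 cells (-0.38 ± 0.13, adjusted p = 0.0362). Dropping number 1 left 0 higher and 1 lower, and dropping number 2 left none. LDHB was then at an adjusted p of 0.434 and 0.367, and HK1 missed the threshold whichever number was dropped (adjusted p 0.0746, 0.216 and 0.121). Of 26 genes of cholesterol synthesis, 4 were higher and 4 lower (0 and 1 without number 1, 1 and 0 without number 2, 4 and 2 without number 3). IDI1, an isomerase of isoprenoid units, was at 1419, 1454 and 639.8 CPM in 100 cells, against 806, 1098 and 431 CPM in 50 cells (0.60 ± 0.13, adjusted p = 0.00098). Number 3 was the lowest library of each group. IDI1 missed the threshold without number 1 (adjusted p = 0.170).

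Of 17 subunits of the vacuolar proton pump, 5 were higher and 4 lower (1 and 2 with either number 1 or number 2 left out, and 3 and 7 with library totals). ATP6V1G1, of the stalk, was at 768, 754 and 503 CPM in 100 cells, against 397, 491 and 375 CPM in 50 cells (0.66 ± 0.12, adjusted p = 8.46e-05). ATP6V0C, of the proton ring, was at 37.7, 37.4 and 94.8 CPM in 100 cells, against 95.8, 105 and 129.9 CPM in 50 cells (-1.04 ± 0.13, adjusted p = 1.09e-08). The ranges did not overlap in either gene but nearly touched, at 503 against 491 CPM in ATP6V1G1 and 94.8 against 95.8 CPM in ATP6V0C. ATP6V0C has processed pseudogenes, and ATP6V1G1 missed the threshold without number 1 (adjusted p = 0.0616). Of 34 coat and adaptor proteins of vesicles, 3 were higher and 4 lower (1 and 2 with either number 1 or number 2 left out). These are 8.82 and 11.8% of the list, against 8.38 and 5.56% of all genes. ARCN1, a subunit of the COPI coat, was at 132, 139 and 165 CPM in 100 cells, against 214, 233 and 207 CPM in 50 cells (-0.59 ± 0.11, adjusted p = 8.41e-05).

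Genes of the cell cycle were called in both directions, where 8.38% of all genes were higher and 5.56% lower. Of 31 genes of DNA replication and the G1/S transition, 3 were higher and 3 lower, with a median of -0.04. That is 9.68% each way, near the share over all genes. PCNA, the sliding clamp, was at 586, 546 and 470.1 CPM in 100 cells, against 419, 398 and 378 CPM in 50 cells (0.42 ± 0.12, adjusted p = 0.00881). MCM4, of the replicative helicase, was at 161, 202 and 196 CPM in 100 cells, against 269.9, 296 and 249.5 CPM in 50 cells (-0.55 ± 0.11, adjusted p = 0.000259). Of 34 G2/M genes, 6 were higher and 3 lower (17.6 and 8.82%), with a median of 0.02 (-0.18 with library totals). CENPA, the histone of centromeres, was at 31.1, 33.5 and 19.5 CPM in 100 cells, against 16.1, 13.4 and 12.99 CPM in 50 cells (0.95 ± 0.18, adjusted p = 9.58e-05). PLK1, a mitotic kinase, was at 104, 93.2 and 157 CPM in 100 cells, against 147, 146 and 201 CPM in 50 cells (-0.49 ± 0.11, adjusted p = 0.000778). Without number 1 the replication list had 0 higher and 1 lower and the G2/M list 2 and 2, and without number 2 they had 0 and 3, and 1 and 0. Without number 3 they had 4 and 5, and 10 and 6. PCNA lost its call without number 1 (adjusted p = 0.175) and number 2 (adjusted p = 0.223), and PLK1 without number 2 (adjusted p = 0.103). Of 19 histone genes, 3 were higher and 3 lower (15.8% each way). H2AFZ, a replacement histone with a polyadenylated message, was at 6318, 5693 and 4268 CPM in 100 cells, against 3000.0, 2495 and 3054 CPM in 50 cells (0.92 ± 0.17, adjusted p = 0.000107). Without number 1 none of the histones was higher and 1 lower, without number 2 none was higher and 3 lower, and H2AFZ then missed the threshold (adjusted p 0.145 and 0.163).

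Among non-coding RNAs, 1 of 5 nuclear long non-coding RNAs tested (20%) was called higher and 0 lower. Over all genes 8.38% were higher and 5.56% lower. MALAT1, which is retained in nuclear speckles, was at 5479, 6153 and 1983 CPM in 100 cells, against 2804, 3074 and 1585 CPM in 50 cells (0.77 ± 0.17, adjusted p = 0.000778). It was higher within each number, but number 3 of 100 cells lay below numbers 1 and 2 of 50 cells, and the call was lost without number 1 (adjusted p = 0.237) and without number 2 (adjusted p = 0.217). Among 15 genes that host small nucleolar RNAs, 5 (33.3%) were higher and 0 lower (3 without number 1 and 0 without number 2), and with library totals 0 were higher and 1 lower. GAS5 was at 76.9, 75.6 and 77.7 CPM in 100 cells, against 50.8, 49.0 and 65.4 CPM in 50 cells (0.48 ± 0.12, adjusted p = 0.00294), and missed the threshold without number 2 (adjusted p = 0.101).

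On the TMM scale the summed level of the line's own markers was alike in both groups. The 20 kidney and neural genes listed for HEK293T summed to 2195, 2096 and 2415 CPM in 100 cells, against 2248, 2315 and 2190.0 CPM in 50 cells. With the TMM factors undone, the sum was lower in 100 cells within numbers 1 and 2 and higher within number 3. Log2 fold changes of single members ran from -0.76 to 0.68. Of 14 tested, only the neuropeptide GAL was called, which is 7.14% higher, near the 8.38% of all genes. GAL was at 168, 172 and 206 CPM in 100 cells, against 119, 94.2 and 129 CPM in 50 cells (0.68 ± 0.11, adjusted p = 4.41e-06). This list had 1 gene higher and 1 lower without number 1, and 1 higher and 2 lower without number 3. Markers of T cells, endothelium and erythroid cells were at or near 0. None of 9 T cell, 8 endothelial and 6 erythroid genes passed the filter on low counts, and T cell markers summed to at most 0.677 CPM in 100 cells and 1.56 CPM in 50 cells. CD3D, CD3E, CD3G, MS4A1, CSF1R, CDH5, HBB, KRT5, MYOG and COL1A2 had 0 reads in all 6 libraries. Of 12 B cell genes 1 was tested, as was 1 of 9 macrophage, 1 of 8 myogenic and 2 of 8 epithelial genes, and none of these was called in edgeR or limma with the block, or had an unadjusted p under 0.05 in edgeR; DESeq2 gave an adjusted p for 1 of the 5 and did not call it. Myogenic genes summed to 29.9 to 50.6 CPM in 100 cells, against 31.0 to 56.6 CPM in 50 cells, nearly all of it TNNT1 (26.9 to 47.1 CPM in 100 cells, against 28.6 to 52.4 CPM in 50 cells). Epithelial genes summed to 12.2 to 12.9 CPM in 100 cells, against 11.7 to 15.8 CPM in 50 cells, and B cell genes to 7.77 to 11.2 CPM in 100 cells, against 7.29 to 9.69 CPM in 50 cells. Of 14 fibroblast and matrix genes, which summed to 93.8 to 109 CPM in 100 cells, against 104 to 114 CPM in 50 cells, 8 were tested and COL1A1 was lower, at 2.71, 6.28 and 5.52 CPM in 100 cells, against 8.85, 9.09 and 13.4 CPM in 50 cells (-1.15 ± 0.27, adjusted p = 0.00172). In such pools fewer cells of a kind and less RNA per cell cannot be told apart.

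Transcript length moved with the fold change. Genes were split into 5 equal groups by the length implied by their reads and RPKM. The implied lengths ran from 1.02 to 122700 bases, and the smallest cannot be real lengths. The median log2 fold change was 0.21 in the shortest group, with 610 genes higher and 30 lower of 2267, and 0.02, -0.09, -0.10 (-0.105) and -0.07 in the groups of rising length. In the longest group 37 genes were higher and 116 lower. The shortest group had the highest median within each number, at 0.23, 0.28 and 0.14 for numbers 1, 2 and 3. GC content gave a weaker order, from 0.06 in the group of lowest GC to -0.10 in the highest, and it differed between numbers. Within number 1 the median fell steadily over the 5 groups (0.19, 0.11, 0.02, -0.13 and -0.25), and numbers 2 and 3 showed no such order. In the group of highest GC the median was -0.25, -0.06 and 0.06 for numbers 1, 2 and 3. Length and GC content together took up 18.9% of the variance of the fold change over genes. With this trend removed and the block kept, 869 genes were higher and 570 lower. The ribosomal protein list then had 54 higher and 0 lower of 80 (median 0.35), the respiratory chain and ATP synthase 47 and 1 of 80 (0.27), and mitochondrial ribosomal proteins 21 and 1 of 76 (0.10). For long chromatin regulators it left 4 lower (-0.17), whereas histones had 3 higher and 6 lower (-0.31).

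**Figure D5:**
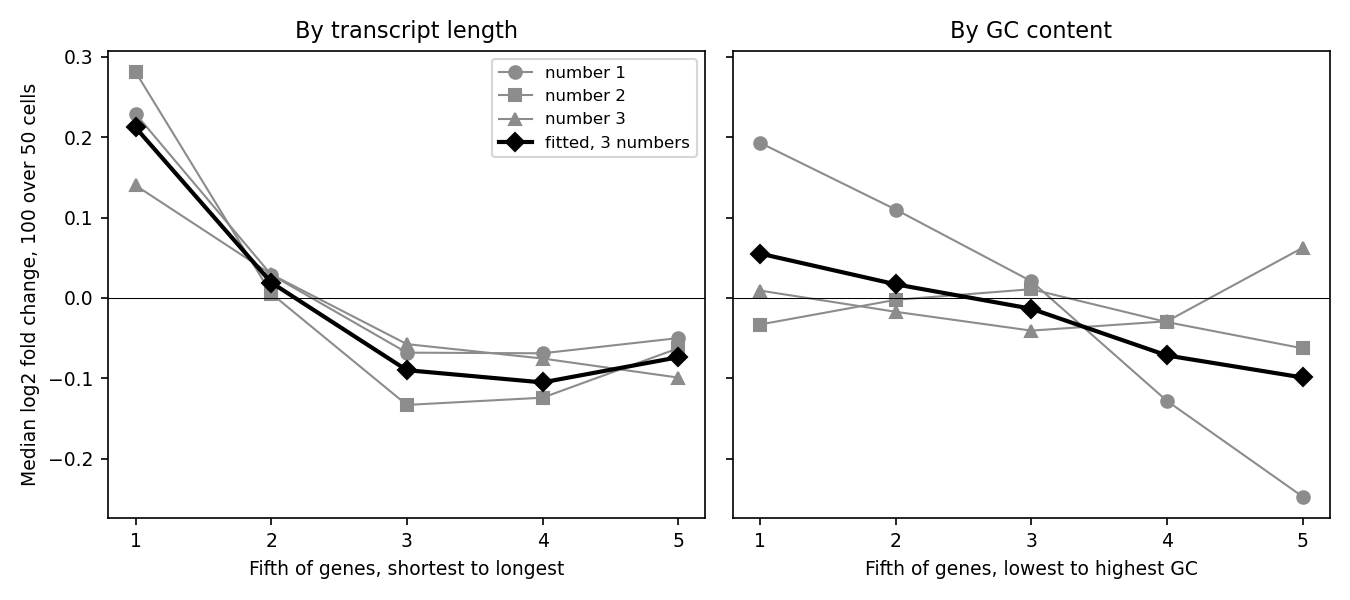
Median log2 fold change of 100 over 50 cells in 5 equal groups of genes by transcript length (left) and by GC content of the longest GENCODE transcript (right), for the fit over the 3 numbers in black and within each number in grey. The shortest genes stand highest within all 3 numbers (0.23, 0.28 and 0.14), whereas in the genes of highest GC number 1 is at -0.25 and number 3 at 0.06.

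Properties of whole libraries were compared with exact permutation tests (two-sided) over 3 against 3 libraries, where the smallest p is 0.1. The 100 most abundant genes took 20.4, 19.8 and 20.4% of reads in 100 cells, against 16.2, 15.3 and 18.1% in 50 cells (exact p = 0.1, 0.183 adjusted over 11 measures). The share was higher within each number. At an equal depth of 3475511 reads, genes with at least 1 read numbered 14993 ± 67.7 in 100 cells and 15128 ± 99.0 in 50 cells (SD, n = 3 each, exact p = 0.2). The difference of -135.8 genes was -64.4 without number 1, -198.5 without number 2 and -144.5 without number 3. Genes with at least 5 reads numbered 12144 ± 156 in 100 cells and 12448 ± 51.4 in 50 cells (SD, n = 3 each, exact p = 0.1, 0.183 adjusted), and these ranges did not overlap. At full depth, where 100 cells had more reads, the mean was 122 genes higher in 100 cells (exact permutation p = 0.6). The median SD of log2(CPM + 1) between libraries was 0.236 in 100 cells and 0.232 in 50 cells over 6376 genes with a mean of at least 20 CPM. The median absolute log2 difference between numbers 1 and 2 was 0.105 in 100 cells and 0.178 in 50 cells, and between number 3 and number 1 it was 0.366 in 100 cells and 0.281 in 50 cells.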

How the data were processed

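RNA of 9 HEK293T libraries (100, 50 and 10 cells, 3 each) was used, and groups and numbers came from the sample titles. Per the file headers the authors deposited 2 columns per gene, read counts and RPKM, with RefSeq genes; STAR and hg19 are named in the submitters' processing notes. Neither STAR's version nor how reads were counted and whether strand was used is given in the sources used here. Rows of the same symbol were summed. RPKM, made by the authors, was used for length and for 1 alternative. The deposited counts were fitted in edgeR 4.0.16 (R 4.3.3) with TMM, filterByExpr (minimum count 10) and the quasi-likelihood F test, the title number as block, over the 6 libraries; SE is the absolute log2 fold change over the root of F, and p-values were adjusted by Benjamini-Hochberg over 11354 genes. Scripts were tested on simulated data. DESeq2 1.42.0 and limma 3.58.1 (on log2(RPKM + 1)) served as alternatives, among 20.

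Pairing was checked by correlating deviations from group means: same-numbered libraries had 0.154, 0.524 and 0.689, all over 0.1, so the numbers were taken as pairs. Number 1 of 100 cells correlated more with number 2 of 50 cells (0.462) than with its own number. Members, lists and tests were chosen with earlier results of these data known. Named genes were, per direction, the 8 of largest absolute log2 fold change among called genes with ranges that do not overlap and at least 20 CPM in the higher group, plus per list the 2 smallest adjusted p-values per direction, or the 2 highest means where none passed, and all subunits of complex II and RNA polymerase II; other members named had their values seen first. A few genes that the rule names are not reported here. GC content came from GENCODE release 29. The reads carry no molecular identifiers, so chi-square values cover counting error only.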

Additional observations from a re-analysis of the deposited data

How the results depend on the processing

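Without the replicate block the counts of genes higher and lower were 0 and 0, and leaving out single libraries without the block gave 0 to 24 higher and 0 to 19 lower; 24 and 19 were reached without number 3 of 100 cells. Summing numbers 1 and 2 of 100 cells, without the block, gave 0 and 0. With the block, leaving out number 1, 2 or 3 gave 246, 150 and 1071 higher and 278, 173 and 816 lower. Library totals gave 355 and 2079, limma on RPKM 183 and 956, the fit with 10 cells 572 and 198, and DESeq2 697 and 160. RLE factors (1137 and 625), no filter (825 and 611), thinned reads (950 and 656), length and GC removed (869 and 570) and number 3 against 1 and 2 as block, an alternative chosen after seeing the data (889 and 578), stayed within 1.5 times. No gene called in the block fit was called in the opposite direction by any alternative. Of 951 genes called higher, library totals kept 355, and DESeq2 644 of the 867 to which it gave an adjusted p; of 631 lower, library totals kept 631, and DESeq2 160 of 368. The cause of these differences was not tested.

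Of 102 named genes called, 53 to 98 stayed called when a number was left out and 0 without the block. POLR2K turned to -0.0127 once length and GC were removed. The difference in detected genes, -135.8 at 1 read, was -303.2 at 5 reads and 122 without thinning. For the share of abundant genes the difference of 3.70 percentage points was 5.58 for the 500 most abundant. Of 720 list medians recomputed, 97 moved by more than their SD between numbers. Only 3 libraries per group and the stand-apart number 3 limit what these data can separate, and the block leaves 2 degrees of freedom.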

Other observations

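The libraries numbered 3 of both groups differed from those numbered 1 and 2 in many more genes than 100 cells did from 50 cells. With pool size in the fit, 2092 genes (18.4%) were higher in number 3 and 2673 (23.5%) lower, whereas 0 differed between numbers 2 and 1 in edgeR (701 at an unadjusted p under 0.05); this contrast was chosen after seeing the data. Its order followed GC content and also transcript length. The median log2 fold change of number 3 over numbers 1 and 2 was -0.60, -0.25, 0.03, 0.29 and 0.43 in 5 groups of genes of rising GC content. In the lowest group 18 genes were higher and 1558 lower, and in the highest 924 were higher and 13 lower. By rising length of the longest GENCODE transcript the medians were 0.32, 0.16, 0.01, -0.15 and -0.27. The shortest group had 910 genes higher and 252 lower, and the longest 116 and 816. The 2 properties were not told apart in this contrast. The read-weighted mean GC content was 46.8, 46.6 and 48.4% in numbers 1 to 3 of 100 cells and 47.1, 46.4 and 48.2% in those of 50 cells. SRP9, a protein of the signal recognition particle, was lower in number 3 by a log2 fold change of -2.00, and so was SKIL, a repressor of SMAD signalling, at -1.82. In number 3, 46 of the 80 ribosomal protein genes were higher and 3 lower.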
